A study of Arabidopsis thaliana with 6 samples.

Results

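The genes described here make suberin, the waxy polyester that is laid down as lamellae around the endodermis of the root and around seed coats. They are 9 of the 32948 genes in the deposited table and were chosen by gene ID, with earlier results of these data already seen, as known genes of suberin synthesis: KCS2, KCS20, CYP86A1, CYP86B1, GPAT5, FAR1, FAR4, FAR5 and ASFT. Their level was compared between whole wild-type (WT) Arabidopsis thaliana seedlings kept on MS medium (a common medium for growing plants) and seedlings on the same medium carrying yttrium oxide nanoparticles at 20 mM, all sampled at 6 h. There were 3 libraries in each group, and nothing in the labels says that they came from separate cultures, so each p-value reflects the scatter among these libraries alone, and that scatter may be technical. The series asks how seedlings respond to the toxicity of these particles of a rare-earth metal oxide.

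Suberin is built from fatty acids, glycerol and ferulic acid. KCS enzymes lengthen fatty acyl chains, CYP86 enzymes hydroxylate the end of the chain, GPAT5 joins the products to glycerol, FAR enzymes reduce fatty acyl groups to primary alcohols, and ASFT adds the ferulate. The finished lamellae limit the passage of water and solutes across endodermal cells that already carry a Casparian strip, and the amount of suberin in the root is known to change with nutrient supply, abscisic acid and ethylene.

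The suberin genes did not move as a block. CYP86A1 and FAR5 fell in the treated seedlings, ASFT and FAR1 rose, and the other 5 did not pass the threshold (limma with Benjamini-Hochberg adjustment over all 18614 genes tested, adjusted p under 0.05). All 9 passed the filter on low values, a mean of at least 1 FPKM over the 6 libraries, where FPKM is the number of fragments corrected for the length of the gene and the depth of the library. The 2 members that rose stand against 8.07% of all genes tested that were called higher, the 2 that fell against 6.41% called lower, and the 4 called in all against 14.5%. Groups did not overlap for 6 of the 9 members, beside 35.6% of all genes tested. Of these 6, KCS20, ASFT and FAR1 lay higher in every treated library, beside 19.0% of all genes tested, and CYP86A1, FAR4 and FAR5 lay lower, beside 16.7%. The median log2 change of the 9 was -0.29, with a range from -1.34 to 0.74, and the median over all genes tested was 0.0. In whole seedlings, fewer cells of a type and less RNA per cell cannot be told apart.

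**Figure D1:**
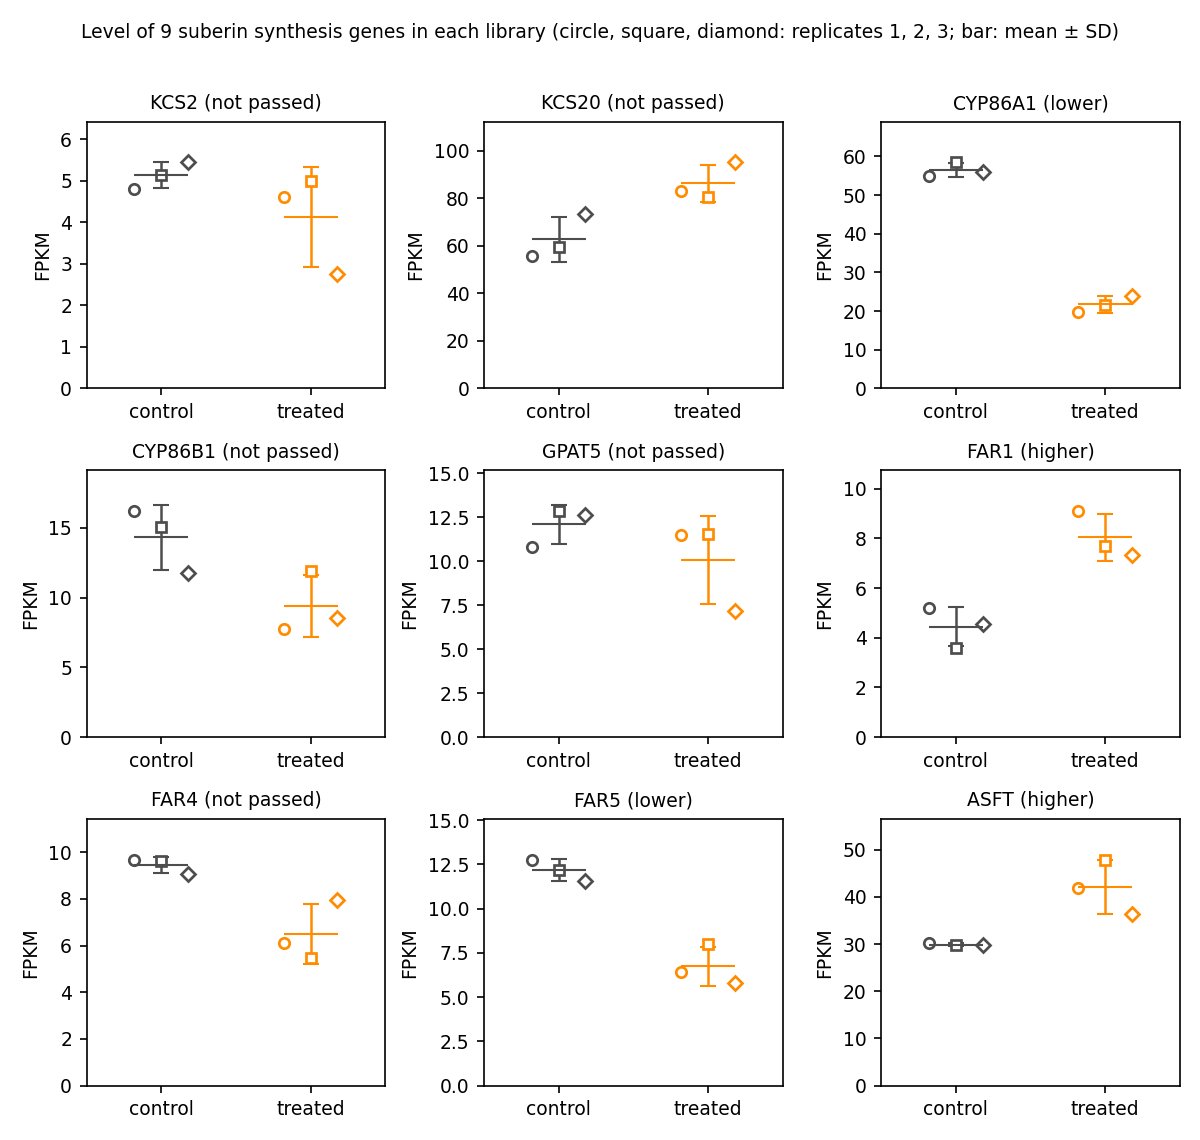
Level in FPKM (y axes from 0) of each of the 9 suberin synthesis genes in 3 control (grey) and 3 treated (orange) libraries. Symbols are libraries 1, 2 and 3, bars are mean ± SD, and the word beside each name is the limma call. CYP86A1 lies at 55.1 to 58.5 FPKM in controls and at 19.7 to 24.0 in treated seedlings, while ASFT and FAR1 lie higher in every treated library than in any control.

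The bases before the gene start are shown for the 4 members that passed the threshold, since these genes are neighbours in function yet differed in direction. Each line holds the 250 bases before the annotated start, 5′ to 3′ on the gene's strand, from the RefSeq TAIR10.1 genome. Capitals mark 2 motifs, searched on both strands: ACCNAAC, an AC element of the kind bound by R2R3 MYB factors, and TTGAC, the core of the W-box bound by WRKY factors.
CYP86A1 (chr5:23768112-23768361, minus strand): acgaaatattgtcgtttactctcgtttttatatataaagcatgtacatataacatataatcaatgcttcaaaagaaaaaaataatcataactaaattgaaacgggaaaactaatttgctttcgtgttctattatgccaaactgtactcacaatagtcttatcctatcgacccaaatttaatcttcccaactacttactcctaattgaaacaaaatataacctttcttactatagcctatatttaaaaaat
FAR5 (chr3:16137326-16137575, plus strand): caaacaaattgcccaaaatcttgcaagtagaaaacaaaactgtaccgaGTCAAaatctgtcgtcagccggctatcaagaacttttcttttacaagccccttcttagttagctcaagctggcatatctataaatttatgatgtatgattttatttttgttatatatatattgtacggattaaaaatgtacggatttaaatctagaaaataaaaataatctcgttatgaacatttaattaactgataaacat
ASFT (chr5:16431054-16431303, plus strand): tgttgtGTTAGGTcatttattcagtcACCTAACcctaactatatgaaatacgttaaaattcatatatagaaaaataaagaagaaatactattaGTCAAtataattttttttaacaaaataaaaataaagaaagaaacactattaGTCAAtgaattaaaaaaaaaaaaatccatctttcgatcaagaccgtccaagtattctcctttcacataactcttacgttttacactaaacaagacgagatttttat
FAR1 (chr5:7470078-7470327, plus strand): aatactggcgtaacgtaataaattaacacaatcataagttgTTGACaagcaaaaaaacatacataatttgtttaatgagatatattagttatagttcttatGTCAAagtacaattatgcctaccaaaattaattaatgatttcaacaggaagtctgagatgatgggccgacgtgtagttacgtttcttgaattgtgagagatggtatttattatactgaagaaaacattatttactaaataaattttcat
The CYP86A1 stretch held none of these matches. ASFT held 2 AC elements, which begin 244 and 224 bases before the gene start, and 2 W-box cores at 157 and 106 bases. FAR1 held 2 W-box cores, at 209 and 149 bases, and FAR5 held 1, at 202 bases, and no matches overlapped. Over the 9 members, 2 held an AC element, ASFT and CYP86B1, beside 14.5% of 27419 promoters of protein-coding genes, and 5 held a W-box core, beside 44.9%. Neither ACCNACC, another AC element (6.1% of promoters), nor ACGTGNC, an abscisic acid response element (8.6%), was found in any member's stretch. A match is a match of letters only, and its absence says only that the letters are not in this window.

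Chain elongation was represented by KCS2 and KCS20, 3-ketoacyl-CoA synthases that act together in making the very-long-chain acids of root suberin. Whole seedlings were sampled, so the root and shoot levels of either gene cannot be told apart. KCS20 (AT5G43760, chromosome 5, 17585523 to 17588733, plus strand, TAIR10) was the most abundant of the 9 genes, with 55.5, 59.3 and 73.1 FPKM in controls 1 to 3 and 83.2, 80.3 and 95.0 FPKM in treated libraries 1 to 3. All treated values lay above all control values, and the means were 62.6 ± 9.28 and 86.2 ± 7.81 FPKM (SD, n = 3 each), 1.38 times as high. The change did not pass the threshold (log2 change 0.46 on the log2(FPKM + 1) scale ± 0.134 SE, adjusted p = 0.0538 by limma). With 1 library left out it passed in 2 of 6 limma fits, without control 3 (adjusted p = 0.0343) and without treated library 2 (0.0488). In the other fits the adjusted p reached 0.181. KCS2 (AT1G04220, chromosome 1, 1119699 to 1122786, minus strand) was far less abundant, with 4.82, 5.14 and 5.45 FPKM in controls and 4.62, 5.0 and 2.76 in treated libraries. Treated library 3 lay lowest and the groups overlapped (log2 change -0.29 ± 0.186 SE, adjusted p = 0.344 by limma).

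In the KCS2 locus, 74.5% of the span is covered by a non-coding gene on the other strand, AT1G04247, which had 1.22 ± 0.152 FPKM in controls and 0.855 ± 0.297 in treated libraries. Whether the counting used strand is not given in the sources used here, so the KCS2 value is uncertain. Reads are little shared between the KCS copies: 4 of the 1946 exonic stretches of 50 bases in KCS2 (0.21%) occur in KCS20.

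The end of the chain is hydroxylated by CYP86A1 and CYP86B1, cytochrome P450 enzymes of long-chain and very-long-chain acids respectively. CYP86A1 (AT5G58860, chromosome 5, 23765791 to 23768111, minus strand) had 55.1, 58.5 and 55.9 FPKM in controls 1 to 3 and 19.7, 21.6 and 24.0 FPKM in treated libraries. The groups stood far apart relative to their spread, at 56.5 ± 1.78 and 21.8 ± 2.12 FPKM, and the treated mean was 0.385 times the control mean. This was the largest change among the 9 in size (log2 change -1.34 ± 0.108 SE, adjusted p = 0.000128 by limma), and it passed under all 15 alternatives run, with log2 changes between -1.41 and -1.28. The authors' deposited table, which lists only genes with an absolute log2 fold change above 1, holds 1 of the 9 members, CYP86A1, at -1.38.

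CYP86B1 (AT5G23190, chromosome 5, 7803141 to 7805968, minus strand) had 16.2, 15.1 and 11.7 FPKM in controls and 7.73, 11.9 and 8.51 in treated libraries. Control 3 lay just below treated library 2, so the groups overlapped (14.3 ± 2.33 and 9.38 ± 2.22 FPKM, log2 change -0.57 ± 0.177 SE, adjusted p = 0.0662 by limma). Without treated library 2 the adjusted p was 0.0117 and the log2 change -0.74. That was the only 1 of 6 limma fits with 1 library left out that passed, and the adjusted p reached 0.214.

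GPAT5 (AT3G11430, chromosome 3, 3595694 to 3597952, plus strand), an acyltransferase that makes monoacylglycerols for suberin, had 10.8, 12.9 and 12.6 FPKM in controls and 11.5, 11.5 and 7.16 in treated libraries. Treated libraries 1 and 2 lay within the control range and treated library 3 lay below it. The means were 12.1 ± 1.12 and 10.1 ± 2.52 FPKM (log2 change -0.27 ± 0.179 SE, adjusted p = 0.360 by limma), and the change passed under none of 15 alternatives. GPAT7, its close relative among the other suberin genes listed, rose, from 2.57, 4.01 and 4.31 FPKM in controls to 8.68, 8.89 and 5.90 in treated libraries (log2 change 0.93 ± 0.202 SE, adjusted p = 0.0178 by limma).

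The fatty acyl reductases went in different directions. FAR5, FAR4 and FAR1 make the primary alcohols of suberin in order of increasing chain length. FAR5 (AT3G44550, chromosome 3, 16137576 to 16142270, plus strand) had 12.8, 12.2 and 11.6 FPKM in controls and 6.43, 7.98 and 5.80 in treated libraries. Every treated value lay below every control value, with means of 12.2 ± 0.596 and 6.74 ± 1.12 FPKM (log2 change -0.78 ± 0.131 SE, adjusted p = 0.00612 by limma), and the fall passed under all 15 alternatives. FAR4 (AT3G44540, chromosome 3, 16123426 to 16128030, plus strand) had 9.69, 9.64 and 9.06 FPKM in controls and 6.11, 5.47 and 7.95 in treated libraries. The groups did not overlap, but the change did not pass the threshold (log2 change -0.49 ± 0.142 SE, adjusted p = 0.0524 by limma). With 1 library left out it passed in 1 of 6 limma fits, without treated library 3 (adjusted p = 0.0188), and the adjusted p reached 0.161.

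FAR1 (AT5G22500, chromosome 5, 7470328 to 7474133, plus strand), matched by gene ID and distinct from a light-signalling gene of the same symbol, had 5.19, 3.60 and 4.55 FPKM in controls and 9.11, 7.70 and 7.33 in treated libraries. All treated libraries lay above all controls, and the mean rose 1.81-fold, from 4.45 ± 0.800 to 8.05 ± 0.937 FPKM (log2 change 0.74 ± 0.150 SE, adjusted p = 0.0138 by limma). Without control 2 the adjusted p was 0.0515. A gene on the other strand covers 34.4% of the FAR1 span, and it was listed at 0 in every library.

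FAR4 and FAR5 lie 9.5 kb apart on chromosome 3, and FAR8, another reductase gene, follows 8.9 kb further on. FAR8 was listed at 0 in 5 of the 6 libraries and at 0.0452 FPKM in treated library 1, and FAR7, 37.5 kb from FAR1 on chromosome 5, was listed at 0 in all 6. None of the other 5 members of the reductase family reached a mean of 1 FPKM. FAR3, also called CER4, an enzyme of shoot wax alcohols, had 0.764 to 1.19 FPKM in controls and 0.0525 to 0.256 in treated libraries. Its treated mean was 0.136 times the control mean. It was not tested by limma, and the authors listed it at a log2 fold change of -2.86. No exonic stretch of 50 bases in FAR4 occurs in FAR5 or elsewhere in the genome, and 17 of the 2481 in FAR5 (0.69%) occur elsewhere, in AT1G18130.

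The aromatic part of suberin depends on ASFT (AT5G41040, chromosome 5, 16431304 to 16433305, plus strand; named HHT1 in the table), the transferase that puts ferulate onto hydroxy acids and alcohols. It had 30.2, 29.7 and 29.8 FPKM in controls and 41.8, 47.9 and 36.4 in treated libraries. The controls were almost equal and every treated library lay above them, with means of 29.9 ± 0.240 and 42.0 ± 5.77 FPKM (log2 change 0.47 ± 0.121 SE, adjusted p = 0.0350 by limma). With 1 library left out at a time the adjusted p by limma lay between 0.0225 and 0.110, and of these 6 fits the change passed in 1, the fit without treated library 3. Genes that supply ferulate and monolignols had 2 of 18 higher, beside 8.07% of all genes tested, and 1 lower, beside 6.41%. Their median log2 change was 0.03. The alcohol dehydrogenase gene CAD5 and the phenylalanine ammonia-lyase gene PAL4 rose by 0.46 and 0.62 and CAD4 fell by 0.43 (limma adjusted p = 0.0418, 0.0499 and 0.0452). None of the 3 passed when no filter on low values was used. C4H and CCoAOMT1, enzymes of the shared pathway, had log2 changes of -0.12 and 0.04 (adjusted p = 0.653 and 0.845).

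**Figure D2:**
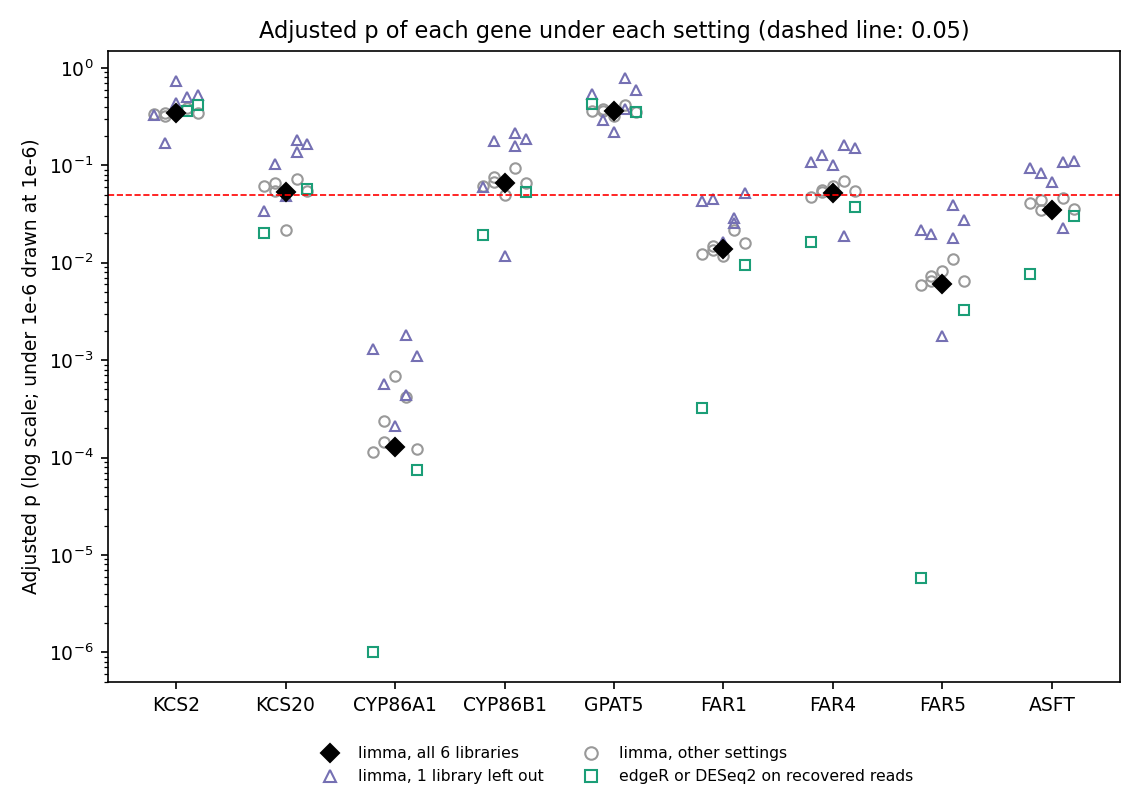
Adjusted p (log axis) of each of the 9 genes under limma with all 6 libraries (black), with 1 library left out (triangles), with other limma settings (circles) and under edgeR or DESeq2 on recovered reads (squares). CYP86A1 and FAR5 stay under 0.05 throughout, GPAT5 and KCS2 stay above it, and the other 5 lie on both sides.

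Counted on the reads recovered from the deposited values, DESeq2 called 7 of the 9 members, beside 19.5% of all genes, and edgeR's quasi-likelihood test called 5, beside 16.0%. Under DESeq2 CYP86A1, CYP86B1, FAR4 and FAR5 were lower, beside 8.37% of all genes, and KCS20, FAR1 and ASFT were higher, beside 11.1%. Under edgeR 3 were lower, beside 7.07%, and 2 higher, beside 8.89%, since FAR4 joined the limma calls (edgeR adjusted p = 0.0374). Direction was the same as in limma for all 9 members under all alternatives. The members rested on 110 (KCS2) to 4107 (KCS20) reads in a library.

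The summed level of the 9 genes lay within a narrow range, while its make-up differed between the groups. The sum was 200.2, 206.0 and 213.8 FPKM in controls 1 to 3 and 190.3, 199.4 and 194.9 in treated libraries, so the treated sums lay just below the control sums. The most abundant genes weigh most in such a sum. The mean of CYP86A1 was 56.5 FPKM in controls and 21.8 in treated libraries. That of KCS20, whose change did not pass the threshold, was 62.6 and 86.2 FPKM. A sum in a narrow range therefore does not mean that the genes kept their levels. The shares below are of the summed level. CYP86A1 made up 27.3 ± 1.14% of the sum in controls and 11.2 ± 1.01% in treated libraries, and KCS20 30.2 ± 3.48% and 44.3 ± 4.26%. The share of ASFT was 14.5 ± 0.567% and 21.6 ± 2.70%, and that of FAR1 2.16 ± 0.423% and 4.14 ± 0.564%. In controls the order of levels was KCS20, CYP86A1, ASFT, CYP86B1, FAR5, GPAT5, FAR4, KCS2 and FAR1. Control ranges overlapped between KCS20 and CYP86A1, between CYP86B1 and FAR5, between FAR5 and GPAT5, and between KCS2 and FAR1. In treated libraries the order was KCS20, ASFT, CYP86A1, GPAT5, CYP86B1, FAR1, FAR5, FAR4 and KCS2, with overlapping ranges between each neighbouring pair from GPAT5 to FAR4. FAR1 was the least abundant member in controls and KCS2 the least abundant in treated seedlings.

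**Figure D3:**
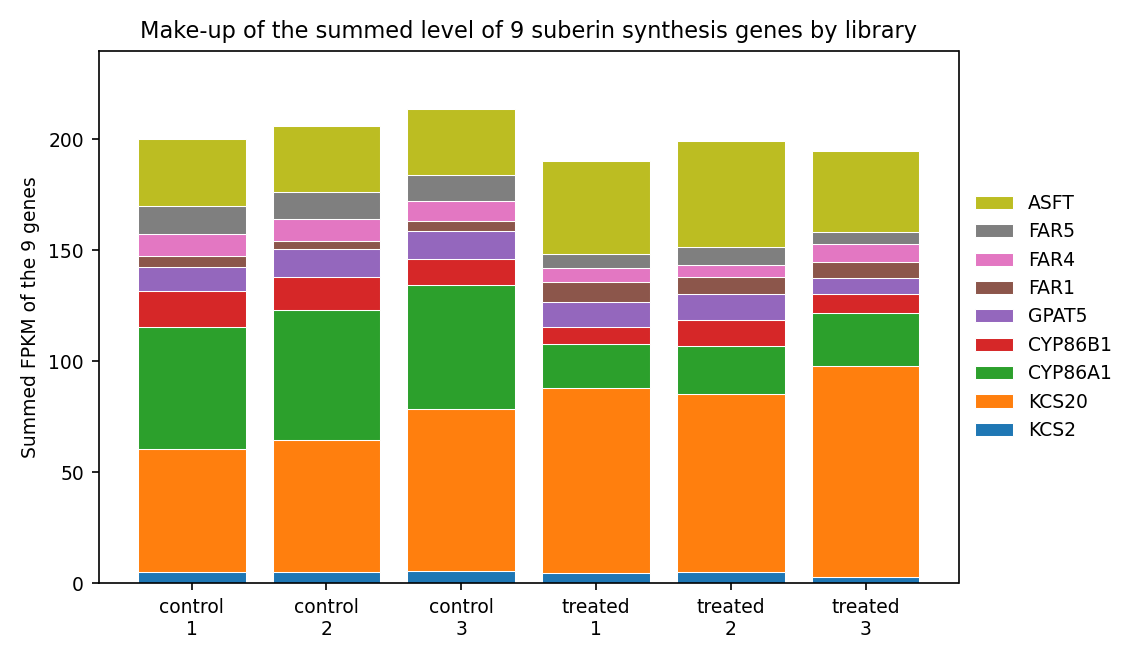
Summed FPKM of the 9 suberin synthesis genes in each library, stacked by gene (y axis from 0). The totals lie between 190.3 and 213.8 FPKM, while the CYP86A1 band shrinks from 27.3% to 11.2% of the total and the KCS20 band grows from 30.2% to 44.3%.

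Pairs of like enzymes were compared by their log2 ratio within each library. Apart from the 0.1 FPKM added to each value, this ratio does not depend on the scaling of libraries. The CYP86A1/CYP86B1 ratio was 1.76, 1.95 and 2.24 in controls and 1.34, 0.85 and 1.48 in treated libraries, a difference of -0.76 (SE 0.237). The KCS2/KCS20 ratio was -3.5, -3.5 and -3.72 in controls and -4.14, -3.98 and -5.06 in treated libraries, a difference of -0.82 (SE 0.343). In both pairs the groups did not overlap, and the 2-sided exact permutation p was 0.1, the smallest that 3 against 3 libraries can give (0.15 adjusted over the 3 pairs). The FAR4/FAR5 ratio was alike from control to control (-0.4, -0.34 and -0.35), with FAR4 below FAR5 in each. It was spread in treated libraries (-0.07, -0.54 and 0.45), with a difference of 0.31 (SE 0.285, exact permutation p = 0.4, adjusted 0.4). Without treated library 3 the KCS2/KCS20 difference was -0.48 and the FAR4/FAR5 difference 0.06, and without treated library 2 the latter was 0.55. With that test none of the 3 differences could pass 0.05.

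**Figure D4:**
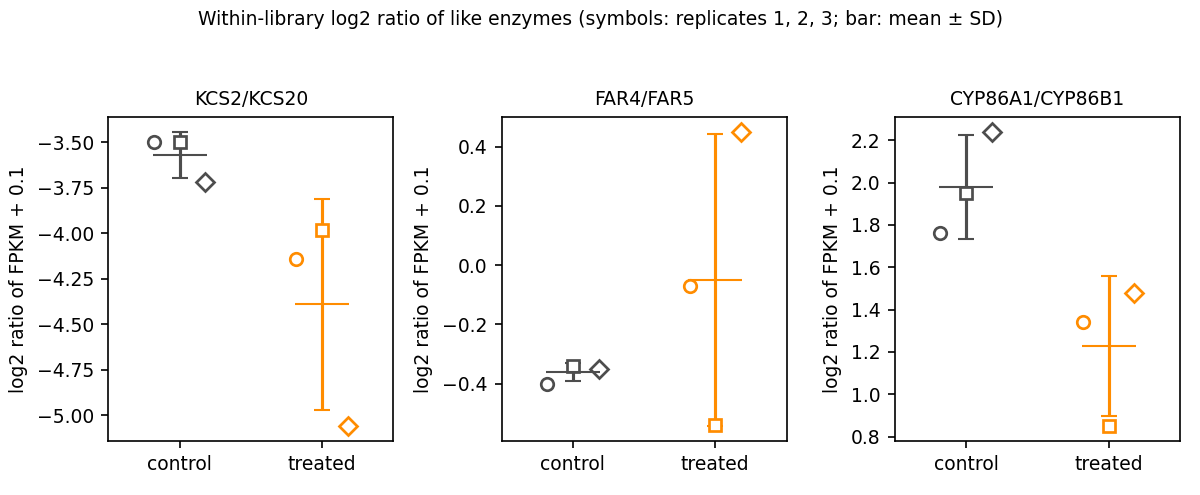
Within-library log2 ratio of FPKM + 0.1 for 3 pairs of like enzymes in control (grey) and treated (orange) libraries, with mean ± SD. The KCS2/KCS20 and CYP86A1/CYP86B1 ratios lie lower in every treated library than in any control, and the FAR4/FAR5 ratio overlaps.

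Other genes of suberin synthesis and export were mixed as well, with 1 of 10 tested higher, 2 lower and a median log2 change of -0.18. Over all genes tested the limma shares were 8.07% higher and 6.41% lower. Besides GPAT7, which rose, the calls were LTPG15, a lipid transfer protein gene, and ABCG20, a half-size transporter gene needed for suberin barriers. LTPG15 had 11.6, 14.5 and 13.6 FPKM in controls and 6.87, 8.09 and 5.73 in treated libraries (log2 change -0.85 ± 0.145 SE, adjusted p = 0.00637 by limma). ABCG20 had 12.4, 12.5 and 13.1 FPKM and 7.48, 10.3 and 7.36 FPKM (log2 change -0.56 ± 0.138 SE, adjusted p = 0.0295 by limma). The general elongation genes CER10 and PAS2 had log2 changes of 0.07 and -0.27 (adjusted p = 0.690 and 0.116). Without control 1 or treated library 1, 1 gene of this list was called. ABCG2 was listed at 0 in 5 libraries and at 0.0171 FPKM in control 3.

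Transcription factors known to act on suberin had 2 of 9 tested higher, beside 8.07% of all genes tested, and 1 lower, beside 6.41%. Of the list, 1 was called when any 1 control was left out. NAC058 fell, from 9.30, 10.5 and 7.92 FPKM in controls to 2.98, 3.32 and 3.59 in treated libraries (log2 change -1.25 ± 0.137 SE, adjusted p = 0.000681 by limma). MYB41, a factor able to switch on suberin synthesis, rose from 0.680, 0.682 and 0.526 FPKM to 1.49, 1.97 and 1.29 FPKM (log2 change 0.66 ± 0.155 SE, adjusted p = 0.0251 by limma), at most 60 reads in a library. NAC046 rose from 3.18 ± 0.494 to 5.69 ± 1.05 FPKM (limma adjusted p = 0.0285). MYB93 and MYB92 had log2 changes of 0.05 and -0.42 (limma adjusted p = 0.800 and 0.184). Genes of the abscisic acid response, a hormone known to raise suberin, had 5 of 14 higher by limma, beside 8.07% of all genes tested. They were led by RD26 (log2 change 2.09) and LTI30 (1.85). HB7, a homeobox gene, and CYP707A3, which breaks down abscisic acid, also rose, by 1.6 and 1.81 on the log2 scale (limma adjusted p = 0.00905 and 0.00966). The groups overlapped for RD29A (0.26) and RAB18 (0.40), for which the adjusted p by limma was 0.695 and 0.611. Treated library 2 stood apart for both. RD29A had 95.3, 221.8 and 68.8 FPKM in treated libraries 1 to 3, and RAB18 had 12.7, 53.0 and 17.4.

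**Figure D5:**
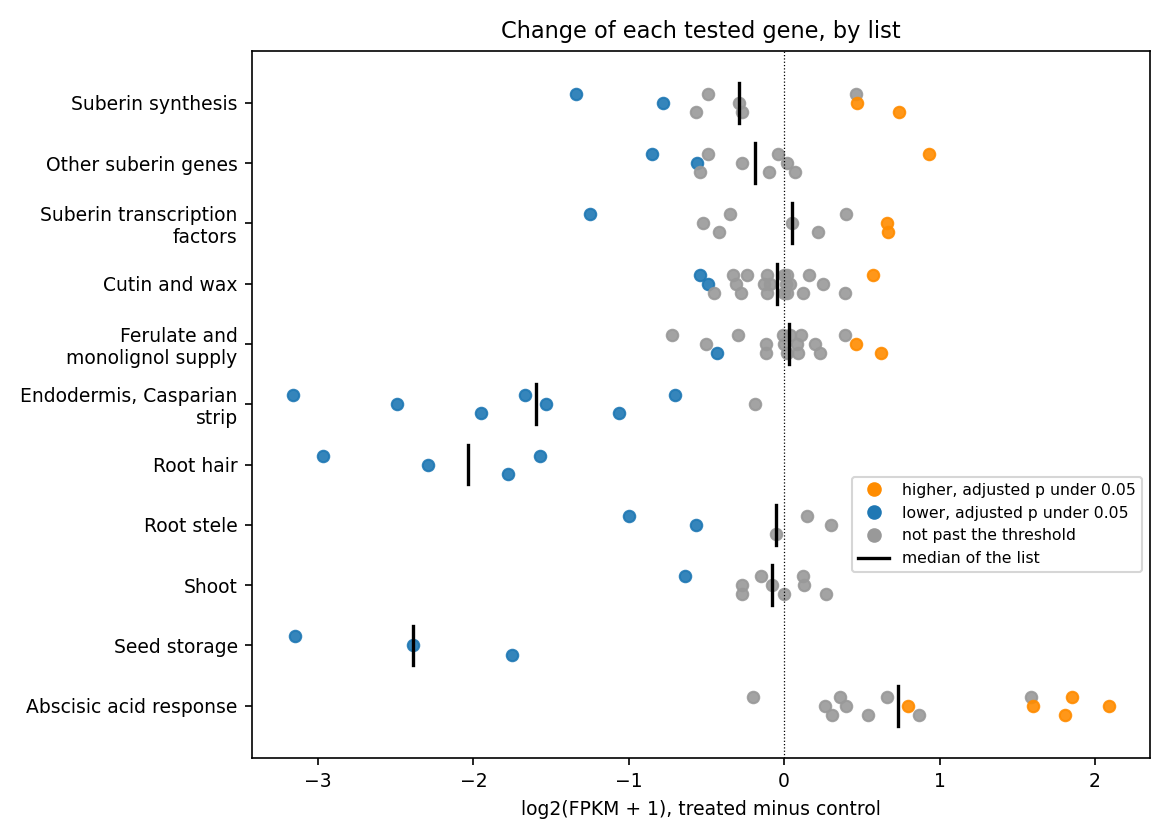
Change of each tested gene (x axis, log2(FPKM + 1), treated minus control) in 11 gene lists, coloured by limma call, with the median of each list as a black bar. Suberin synthesis genes spread from -1.34 to 0.74 around a median of -0.29, while endodermis and root hair markers lie at medians of -1.6 and -2.03.

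Most markers of the endodermis and of root hairs were lower in treated seedlings. Of all genes tested, 6.41% were called lower, a share to set beside the count of each list here. Of 10 endodermis and Casparian strip markers, 8 were tested, 7 of which fell, with a median log2 change of -1.6, and their summed level was 40.0 to 46.3 FPKM in controls and 11.9 to 14.1 in treated libraries. CASP1, a scaffold of the Casparian strip, had 9.73, 8.71 and 9.37 FPKM in controls and 0.203, 0.202 and 0.0568 in treated libraries. PER64, a peroxidase gene of the same structure, had 6.58, 6.40 and 6.81 FPKM in controls and 0.261, 0.296 and 0.5 in treated libraries. CASP2 also fell, from 3.12 ± 0.516 to 0.0650 ± 0.0330 FPKM, and CASP4 from 2.40 ± 0.473 to 0.172 ± 0.0344 FPKM (limma adjusted p = 0.000101 and 0.00048), and on the log2(FPKM + 1) scale such low treated levels compress the change. Without control 3, 4 genes of the list were called. The endodermal regulator SCR had 10.3 ± 0.802 and 8.84 ± 0.772 FPKM (limma adjusted p = 0.305), and ESB1 and CASP5 stayed under a mean of 1 FPKM. All 4 tested of 7 root hair markers fell, and their list summed to 17.7 to 24.7 FPKM in controls and 0.872 to 1.2 in treated libraries. Among them the expansin gene EXPA18 had 5.64, 3.98 and 2.68 FPKM in controls and was listed at 0 in treated libraries 1 and 3 and at 0.0365 FPKM in treated library 2. COBL9, RSL4 and RHD6 stayed under a mean of 1 FPKM and were not tested. COBL9 and RSL4 lay lower in every treated library. The groups overlapped for RHD6, with 0.802, 0.629 and 0.482 FPKM in controls and 0.129, 0.576 and 0.288 in treated libraries. In the root stele list 2 of 5 tested genes fell, WOL by 1.0 and PHO1 by 0.57 on the log2 scale, while 1 was called when any 1 control, treated library 1 or treated library 3 was left out. SUC2, APL and SHR had log2 changes of 0.30, 0.15 and -0.05 (limma adjusted p = 0.253, 0.463 and 0.838). The libraries hold whole seedlings, so the root and shoot levels of the genes in this list cannot be told apart. SKOR, under a mean of 1 FPKM and so not tested, had 1.28, 1.72 and 1.29 FPKM in controls. It had 0.162, 0.258 and 0.326 FPKM in treated libraries, all below the controls.

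The summed root hair level thus lay near 1 FPKM in treated seedlings, and the summed endodermis level at 11.9 to 14.1 FPKM. Most of that endodermis sum was SCR, which did not pass the threshold and had a treated mean of 8.84 FPKM. The summed suberin level was 190.3 to 199.4 FPKM, just below the 200.2 to 213.8 of the controls. KCS20 made up 44.3% of it in treated libraries and 30.2% in controls. Since 1 gene weighs heavily in the endodermis sum and in the suberin sum, these sums do not show which list changed more. All 3 tested seed storage genes, among them CRA1 (23.5 ± 12.2 to 1.84 ± 1.85 FPKM), also fell, and their list summed to 13.7 to 56.1 FPKM in controls and 0.759 to 5.12 in treated libraries. Of 9 shoot markers, 1 fell, the guard cell channel gene KAT1, beside 6.41% of all genes tested. The median log2 change of the 9 was -0.08. The seed storage count was 1 without control 1, control 3 or any 1 treated library, and KAT1 did not pass without control 2, control 3, treated library 1 or treated library 3. The part of these tissue differences in the changes of the suberin genes was not tested. On the leading principal component the treated libraries lay at 48.2, 25.1 and 40.7 and all controls below 0, so treated library 2 was the nearest to them. Without treated library 2 limma called 18.5% of all genes tested and 5 members, CYP86A1, CYP86B1 and FAR5 lower and KCS20 and FAR1 higher, while ASFT did not pass (adjusted p = 0.0675). Without control 2 it called 8.36% of all genes and 2 members, CYP86A1 and FAR5.

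Cutin and wax genes of the shoot, built by relatives of the suberin enzymes, had 1 of 22 tested higher and 2 lower. Of all genes tested, 8.07% were called higher and 6.41% lower. The median log2 change of the list was -0.05. LACS1, an acyl-CoA synthetase gene, rose by 0.57, and LACS2 and the acyltransferase gene GPAT6 fell by 0.49 and 0.54 (limma adjusted p = 0.0275, 0.0331 and 0.0394). None of these calls held when any 1 control was left out, and 1 gene of the list was called without treated library 1 or 3. CYP86A2, a shoot relative of CYP86A1, had 69.6 ± 9.72 and 54.8 ± 3.40 FPKM (log2 change -0.33, limma adjusted p = 0.124), and CER6 had a log2 change of 0.0 (limma adjusted p = 0.995). CER4, given above as FAR3, lay lower in every treated library but was not among the 22 tested.

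Likeness of profile was measured as the root mean square difference between centred log2(FPKM + 1) values over the 6 libraries. Candidates were the 7903 genes outside the members with a symbol and a mean of at least 5 FPKM. Nearest among them to the median profile of the 9 members were CYP711A1 (0.0502), NHL6 (0.0546), FBA3 (0.0565), HAT5 (0.0618), Mge1 (0.0634) and VDAC1 (0.0651), none of which passed the threshold. The members moved in both directions, so their median profile changes little and follows none of the called members. Neighbours with small changes result from that averaging. Nearest to CYP86A1 alone, a comparison chosen after its values were seen, were NPF6.3 (0.0942), ARR8 (0.0975), HA2 (0.0981), NAC058 (0.103), UGT72E1 (0.109) and MEB2 (0.112). These genes fell to between 0.337 and 0.441 times their control mean, against 0.385 times for CYP86A1. NPF6.3 is a nitrate transporter gene and HA2 a plasma membrane proton pump gene.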

How the data were processed

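Messenger RNA was measured in 6 whole-seedling libraries. The authors deposited FPKM values per gene and library. They also deposited a comparison table with a signal for each library (its counts over a size factor), the mean of each group, log2 fold changes and p-values. Per the submitters' processing notes, HISAT2 2.0.5 and TAIR10 were named. The sources used here do not give the counter, annotation release, strand setting or filters.

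Multiplied by gene length, 100.0% of FPKM values came out as whole numbers of reads (within 0.01), which recovered 19314683 to 23374306 reads per library. A count of 0 allows 3 reads, and intervals of this kind cover counting error only.

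The main test was limma 3.58.1 (R 4.3.3; trend, robust, 2-sided, treatment as the only term) on log2(FPKM + 1) of genes with a mean of at least 1 FPKM. That scale understates the change of low genes. Like-enzyme ratios used a pseudocount of 0.1 FPKM. edgeR 4.0.16 and DESeq2 1.42.0 on recovered reads, other pseudocounts, filters, TMM scaling, a replicate block and each library left out were alternatives. Chi-square per degree of freedom between libraries of a group was 12.3 to 34.9, so no pair agreed within counting noise.

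The members and 11 other lists were chosen with earlier results of these data known. From each other list, up to 4 genes past the threshold by adjusted p and up to 2 others by level are named, and the 6 of nearest profile. Any further gene was named after its values were seen. All 128 listed genes were found by gene ID. Of the IDs, 32548 matched RefSeq TAIR10.1, 99.91% with the same start and end, so promoters were read there.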

Additional observations from a re-analysis of the deposited data

How the results depend on the processing

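The number of genes called by limma was 1340 to 3442 with 1 library left out (2696 with all), 683 to 1944 of them higher and 657 to 1498 lower, the lowest without control 1, and 1555 without control 2. With a minimum mean of 5 FPKM 676 genes were called lower. Members called were 2 to 5 with 1 library left out (0 to 2 higher, 2 to 3 lower), and the 2 were CYP86A1 and FAR5, without control 2. DESeq2 called 7 members, 4 of them lower. Over the other lists together 17 to 33 genes were called with 1 library left out (4 to 10 higher, 11 to 25 lower; 34, 11 and 23 with all), with 17, 19, 21 and 21 without control 3, control 1, control 2 and treated library 1, and 18, 10 of them lower, with a minimum mean of 5 FPKM, where fewer genes were tested and KCS2 had no value. The 3 ferulate and monolignol calls were all lost with no filter, without trend and robust settings, and when any 1 control or treated library 1 was left out; the cause was not tested. With 1 library left out the KCS2/KCS20, FAR4/FAR5 and CYP86A1/CYP86B1 differences lay at -1.02 to -0.48, 0.06 to 0.55 and -0.89 to -0.57. The labels do not say that equal replicate numbers pair libraries, and the data do not settle it: deviations of same-numbered libraries correlated at 0.086, 0.383 and 0.101, controls 1 and 2 correlated best with their own number, and control 3 with treated library 1 (0.302). With the replicate block 3256 genes (17.5% of those tested) and 6 members passed, KCS20 (adjusted p = 0.0219) and CYP86B1 (0.0498) being added, and the paired differences of the like-enzyme ratios were -0.82, 0.31 and -0.76. No value of a member changed direction under any alternative. Depth limits MYB41, at most 60 reads in a library, more than the members, at least 110.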
